A study of Mus musculus with 16 samples.

Results

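The integrated stress response and the unfolded protein response were followed through 10 genes (Atf4, Atf5, Atf6, Ddit3, Trib3, Asns, Chac1, Xbp1, Ern1 and Hspa5) in adipose tissue macrophages (ATMs) of mice fed a high-fat diet (HFD). The members were the rows of the raw count table that carry these 10 gene names, and all 10 were found among 37310 gene identifiers. The study asked how the loss of IRF5, a transcription factor of inflammatory macrophages, alters ATMs early and late in diet-induced obesity. RNA was sequenced from F4/80+ cells of the epididymal white adipose tissue (EpiWAT). The labels do not say whether each library came from 1 mouse. The mice were young adult males at the start of the diet, on a C57BL/6 background. Those labelled IRF5-KO carried floxed Irf5 alleles and a Cre recombinase inserted at Lyz2 (LysM-Cre), which is active in macrophages and other myeloid cells, so that other cells of the fat pad should keep Irf5. WT mice were the controls. The 16 libraries form 4 groups of 4. WT ST-HFD and IRF5-KO ST-HFD mice received 4 weeks of HFD (short term), and the mice of WT LT-HFD and of IRF5-KO LT-HFD received 12 weeks (long term). All 4 groups were fed HFD, so no lean group enters any comparison, and the mice fed longer were also older when the cells were taken.

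Both responses slow translation and change transcription when proteins or nutrients are out of balance. In the integrated stress response, kinases that sense unfolded proteins, viral RNA, haem or missing amino acids phosphorylate eIF2alpha, general translation falls, and the mRNA of Atf4 is translated in its place. ATF4 then drives Asns, Trib3, Chac1, Ddit3 and Atf5. In the unfolded protein response the endoplasmic reticulum (ER) uses PERK, which is one of these kinases, together with ATF6 and IRE1 (the product of Ern1). IRE1 splices the mRNA of Xbp1 into the form that encodes the active factor, and ATF6 and XBP1 drive ER chaperones, above all Hspa5 (BiP). Much of this control acts on translation, cleavage, splicing or phosphorylation. A count per gene sees only mRNA amount, and it does not separate spliced from unspliced Xbp1.

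In GRCm38 (mm10) the members lie at chr15:80255184-80257541 (Atf4, plus strand), chr7:44812256-44816658 (Atf5, minus), chr1:170704674-170867771 (Atf6, minus), chr10:127290774-127296288 (Ddit3, plus), chr2:152337422-152344032 (Trib3, minus), chr6:7675169-7693254 (Asns, minus), chr2:119351229-119354381 (Chac1, plus), chr11:5520659-5525893 (Xbp1, plus), chr11:106394650-106487852 (Ern1, minus) and chr2:34771970-34777547 (Hspa5, plus). The promoters of such genes can hold short sequences to which these factors are known to bind. In RefSeq windows of GRCm38.p6 that run from 250 bases before to 50 bases after each gene's start, 9 of the 10 members had an entry. The windows were searched on both strands for the ER stress response element of ATF6 (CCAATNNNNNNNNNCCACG), the shorter ERSE-II (ATTGGNCCACG), the core of the XBP1 element (TGACGTGG) and the ATF4 element (TGATGNAA). Each match before the start is shown in capitals within its neighbouring bases, 5′ to 3′ along the gene, because these are the members whose window holds, before the start, the letters of an element named for this pathway.
Hspa5: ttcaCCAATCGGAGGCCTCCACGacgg
Asns: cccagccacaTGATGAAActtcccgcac
Chac1: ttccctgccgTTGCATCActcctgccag
The Hspa5 stretch lies at chr2:34772021-34772047 (plus strand), with the match from -65 to -47 relative to the RefSeq start. The ER stress response element was in 39 of 32851 windows (0.119%) and, among the members, in that of Hspa5. The Asns stretch lies at chr6:7693215-7693242 (minus strand), with the match from -23 to -16. The Chac1 stretch lies at chr2:119351039-119351066 (plus strand), with the ATF4 element on the opposite strand from -193 to -186. That element was in 1304 windows (3.97%). Trib3 also held it on the opposite strand, from 15 to 22 within the transcribed part. ERSE-II (0.0365% of windows) and the XBP1 core (0.676%) were in no member's window. In the GENCODE vM21 models of the same build, the Hspa5 stretch falls in an exon of 1 of 6 transcripts and the Asns stretch in an exon of 1 of 7, none of it coding, and the Chac1 stretch lies before the gene. A match is a description of letters, not evidence of binding.

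The libraries held 3279332 to 4958131 counts. The 3 most abundant features, mmu-mir-689-2 and the mitochondrial rRNAs mt-Rnr2 and mt-Rnr1, made up 18.6% to 24.1% of a library at 4 weeks and 26.1% to 34.5% at 12 weeks. The libraries labelled IRF5-KO did not have less Irf5 mRNA. Its level there was 250.4 to 274 CPM (counts scaled to a common library size, with TMM factors) on ST-HFD against 203 to 252 in WT, and 206 to 253 against 170 to 213 on LT-HFD. A total per gene does not show which exons the reads came from. Lyz2, where the Cre is inserted, was lower on LT-HFD at -1.04 (SE 0.14, adjusted p = 0.0484) in edgeR's test. On ST-HFD its log2 difference was -0.97 (SE 0.14, adjusted p = 0.106), and its levels did not overlap between genotypes at either duration. The groups are therefore called "the libraries labelled IRF5-KO", and the durations are given as labelled. Of 10 macrophage markers all were detected in each group. Summed markers of fibroblasts and preadipocytes, in contrast, held 1253 to 2477 CPM at 4 weeks and 5536 to 18083 CPM at 12 weeks, with 8 of 8 genes higher on LT-HFD in both genotypes. In such bulk samples, fewer cells of a type and less RNA per cell cannot be told apart.

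The members covered a wide range of levels. Per kilobase of annotated exon, the mean over 16 libraries was 226 CPM for Hspa5, 94.0 for Atf4 and 40.6 for Xbp1, and each of these 3 stood above the next gene in 16 of 16 libraries. Hspa5, the main chaperone of the ER lumen, lay at percentile 98.8 of 11362 expressed genes with a length, and Atf4 at percentile 96.9. Ddit3 (CHOP, a factor of stress-induced cell death) had a mean of 12.7 CPM per kilobase, Atf6 11.6, Atf5 9.11 and Ern1 7.25. Ddit3 stood above Atf6 in 11 of 16 libraries, Atf6 above Atf5 in 11 and Atf5 above Ern1 in 8, so within each of these 3 neighbouring pairs the levels were not separated beyond their spread. The lowest levels were those of 3 ATF4 targets. Asns (asparagine synthetase) had 1.09 CPM per kilobase and 0 to 28 counts a library, Trib3 (a pseudokinase that restrains Akt and ATF4) 0.963 and 1 to 17 counts, and Chac1 (an enzyme that degrades glutathione) 0.134 and 0 to 4 counts. Asns exceeded Trib3 in 8 of 16 libraries. Chac1 passed the filter on low counts in no comparison, and Trib3 did not pass it on LT-HFD, so 9 members were tested on ST-HFD and over all 16 libraries, and 8 on LT-HFD.

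**Figure D1:**
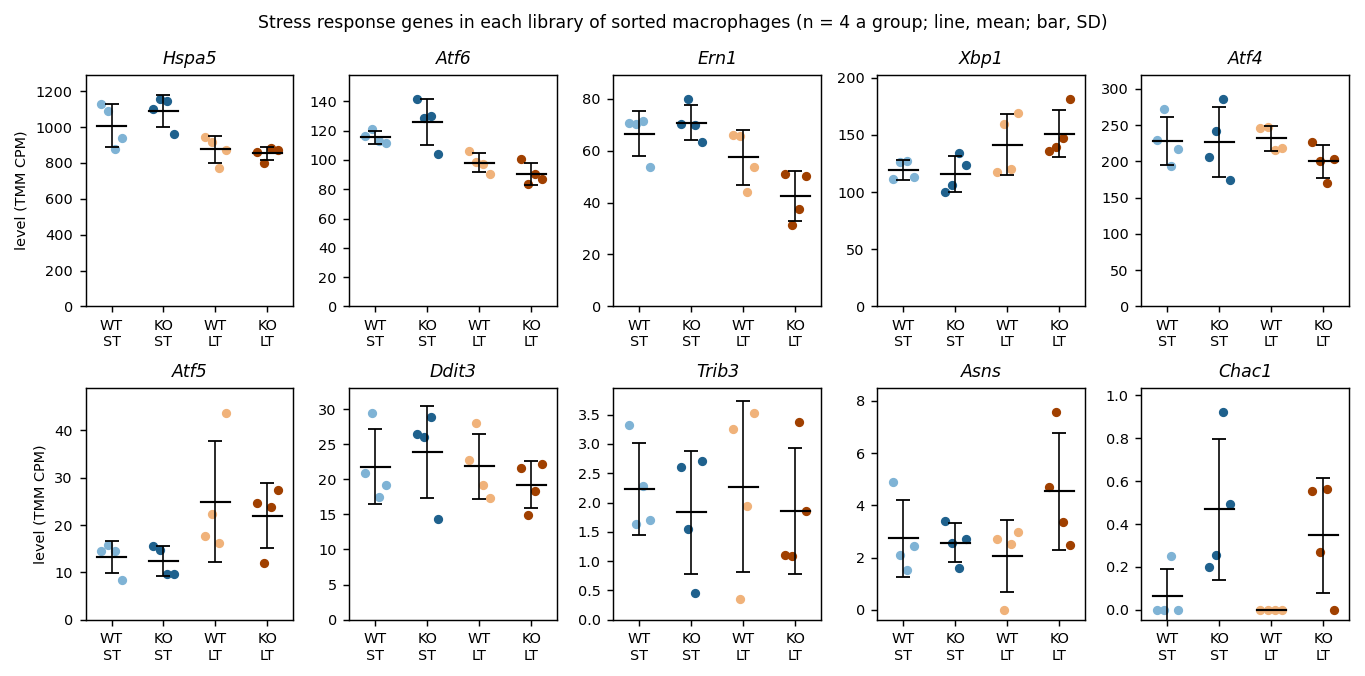
Level of each member in each library, in TMM-normalized CPM on an axis of its own for each gene. Points are libraries (n = 4 a group; WT or libraries labelled IRF5-KO, KO, on ST-HFD or LT-HFD), black lines are means and bars are SDs. Hspa5, Atf6 and Ern1 sit lower on LT-HFD and Atf5 and Xbp1 higher, while Atf4 stays between 170 and 285 CPM throughout.

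The first comparison asked whether the genotypes differed within a diet duration. On ST-HFD they did not differ detectably in any tested member. The Atf4 level was 229.9, 272, 193 and 217 CPM in WT replicates 1 to 4 and 206, 241, 285 and 174 in the libraries labelled IRF5-KO. The lowest and the highest of these 8 values both came from the libraries labelled IRF5-KO. The log2 difference, IRF5-KO minus WT, was -0.02 (95% interval -0.34 to 0.31). Hspa5 had a log2 difference of 0.10 (95% interval -0.14 to 0.35), Atf6 of 0.12 (95% interval -0.10 to 0.34), Ern1 of 0.08 (95% interval -0.17 to 0.34) and Xbp1 of -0.05 (95% interval -0.29 to 0.19). The intervals were wider for Ddit3, at 0.13 (95% interval -0.36 to 0.62), and Atf5, at -0.09 (95% interval -0.63 to 0.45), and widest for Trib3, at -0.28 (95% interval -1.37 to 0.80), and Asns, at -0.11 (95% interval -1.03 to 0.81). With edgeR (quasi-likelihood F test, p-values adjusted after Benjamini and Hochberg over all genes), 0 of 9 members passed an adjusted p of 0.05 (all at 0.9998), against 1 of all 10958 genes tested (0.00913%). At an unadjusted p under 0.05 the count was 0 of 9, against 202 genes (1.84%). DESeq2 called 0 members as well. With the replicate number as a block, 0 members and 2 genes were called, and 451 genes had an unadjusted p under 0.05.

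On LT-HFD, Ern1 was the member furthest from 0 relative to its error. Its level was 65.9, 65.7, 43.9 and 53.8 CPM in WT and 50.9, 31.2, 37.6 and 50.4 CPM in the libraries labelled IRF5-KO. The groups overlapped, with WT replicate 3 inside the range of the libraries labelled IRF5-KO. The log2 difference was -0.44 (SE 0.19, adjusted p = 0.853), with an unadjusted p of 0.0369. Atf4 stood at 246, 247, 216 and 218 CPM in WT and 226, 201, 170.2 and 203 CPM in the libraries labelled IRF5-KO, a log2 difference of -0.22 (SE 0.12, adjusted p = 0.853). Here only replicate 1 of the libraries labelled IRF5-KO fell within the WT range. Asns held 10, 0, 9 and 11 counts in WT and 17, 28, 12 and 8 in the libraries labelled IRF5-KO. WT replicate 2 had 0, which allows up to 1.05 CPM there, and the log2 difference was 1.09 (SE 0.59, adjusted p = 0.853). The other members tested ranged from -0.20 (SE 0.33, adjusted p = 0.972) for Atf5 to 0.09 (SE 0.15, adjusted p = 0.972) for Xbp1. In edgeR's test 0 of 8 members were called, against 2 of 10987 genes (0.0182%), and 1 of 8 had an unadjusted p under 0.05, against 629 genes (5.72%). DESeq2 called 0 members. Genes that respond to tissue dissociation, such as Fos and Jun, summed to 8935 to 12512 CPM in WT and 6656 to 10485 CPM in the libraries labelled IRF5-KO, with 14 of 15 estimates below 0. Their part in the estimates of the members was not tested.

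**Figure D2:**
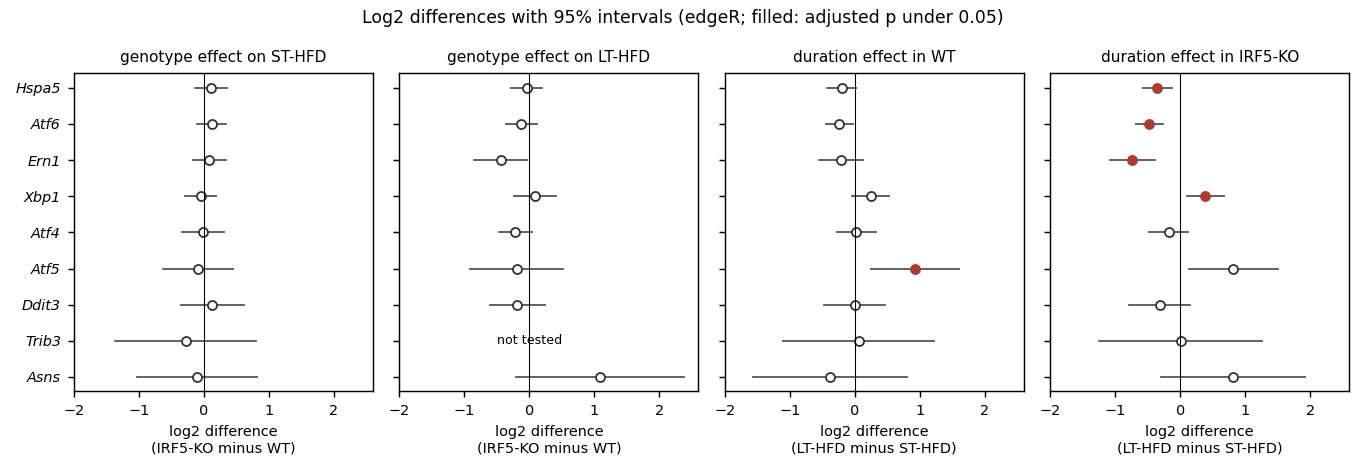
Log2 difference of each tested member in 4 comparisons (x axis), with 95% intervals from edgeR; filled points have an adjusted p under 0.05. The genotype panels hold no filled point, the panel of duration in WT holds Atf5 at 0.92, and that of duration in IRF5-KO holds Hspa5, Atf6, Ern1 and Xbp1.

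The difference between the genotype effects at both durations was tested over all 16 libraries. It was largest relative to its error for Ern1, at -0.52 (SE 0.23, adjusted p = 0.969) with an unadjusted p of 0.0359, and for Atf6, at -0.24 (SE 0.14, adjusted p = 0.969). In edgeR's test 0 of 9 members were called, against 0 of 11560 genes (0%), and 1 of 9 had an unadjusted p under 0.05, against 454 genes (3.93%). DESeq2 called 0 genes, with 537 at an unadjusted p under 0.05. The dissociation genes had 15 of 15 estimates above 0 between genotypes on ST-HFD (median 0.22), 14 of 15 below 0 on LT-HFD (median -0.39) and 15 of 15 below 0 in the interaction, with 0 called in each. Among all genes tested, 50.7%, 50.1% and 48.8% of the estimates were above 0. In edgeR's test 0 of the 15 had an unadjusted p under 0.05 on ST-HFD, 5 on LT-HFD and 2 in the interaction. Among all genes these shares were 1.84%, 5.72% and 3.93%. Of 135 genes in 8 lists around the members (kinases and subunits of eIF2, targets of ATF4, XBP1 and ATF6, aminoacyl-tRNA synthetases, ER-associated degradation, regulators of ATF6 and IRE1, and the mitochondrial unfolded protein response), edgeR tested 125 on ST-HFD and 126 on LT-HFD and called 0 between genotypes at either duration. Unadjusted p was under 0.05 for 0 of 125 genes on ST-HFD, against 1.84% of all genes. On LT-HFD it was so for 4 of 126, 2 in each direction, against 5.72% of all genes. Examples on LT-HFD were Ppp1r15a, which encodes the phosphatase subunit GADD34 that ends eIF2alpha phosphorylation, at -0.60 (SE 0.22, adjusted p = 0.853), and Syvn1, the ubiquitin ligase of ER-associated degradation, at 0.47 (SE 0.15, adjusted p = 0.853).

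The second comparison asked how the members changed with diet duration within a genotype, LT-HFD minus ST-HFD. Durations are as labelled, but a plot of the study orders Irf5 and Ghitm by duration the other way, and exchanged labels would turn the sign of every duration effect. By the labels, the log2 difference in WT was -0.30 for Irf5 (SE 0.11, adjusted p = 0.0485) and 0.47 for Ghitm (SE 0.18, adjusted p = 0.0608) in edgeR, so Ghitm was not called there. Averaged over both genotypes it was -0.24 for Irf5 (SE 0.07, adjusted p = 0.0139) and 0.49 for Ghitm (SE 0.12, adjusted p = 0.00394) in edgeR. The ER sensors and the main chaperone fell in the libraries labelled IRF5-KO. Ern1 fell from 70.7 ± 6.79 to 42.5 ± 9.72 CPM (mean ± SD, n = 4 each), the largest change of the 3 on the log2 scale, though not in CPM. Atf6, the ER membrane sensor that is cut into a transcription factor, was at 141, 128, 129.8 and 104 CPM on ST-HFD and 101, 83.8, 90.5 and 86.8 on LT-HFD. Ern1 was at 70.2, 79.7, 69.8 and 63.3 CPM and then 50.9, 31.2, 37.6 and 50.4. Hspa5 was at 1100.0, 1154, 1145 and 959 CPM and then 859, 801, 882 and 871. In all 3 genes every LT-HFD library lay below every ST-HFD library, as it did for 15.2% of all 11560 genes. The log2 differences were -0.48 (SE 0.10, adjusted p = 0.00144) for Atf6, -0.74 (SE 0.16, adjusted p = 0.00235) for Ern1 and -0.35 (SE 0.11, adjusted p = 0.0170) for Hspa5. Xbp1 moved the other way. Its level was 100.1, 106, 134 and 123 CPM on ST-HFD and 136, 139.6, 147 and 181 CPM on LT-HFD, again without overlap (14.3% of genes were higher in this way), and it rose by 0.38 (SE 0.14, adjusted p = 0.0384) on the log2 scale. The call for Xbp1 was lost without either IRF5-KO ST-HFD replicate 1 or 2 or IRF5-KO LT-HFD replicate 3 or 4, with an adjusted p of 0.0630 to 0.129, and without the filter on low counts (0.0632). In all, edgeR called 4 of 9 members in the libraries labelled IRF5-KO, against 32.8% of 11560 genes. Of these, 1 was higher (15.6% of genes) and 3 were lower (17.2%), so the count is not far from the share among all genes. Over the same libraries 5 of 15 dissociation genes fell, with a sum of 7350 to 16569 CPM on ST-HFD and 6656 to 10485 CPM on LT-HFD. Of 10 macrophage markers 5 fell and 2 rose, and their sum went from 8588 to 9143 CPM to 6677 to 6951 CPM. The part of either in the fall of Atf6, Ern1 and Hspa5 was not tested.

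In WT, the same 4 genes had estimates of the same sign that did not pass the test. Atf6 was at 116, 121, 113 and 111 CPM on ST-HFD and 106, 98.9, 97.3 and 90.3 on LT-HFD, without overlap (13.8% of genes were lower in this way), with a log2 difference of -0.24 (SE 0.10, adjusted p = 0.0958). Hspa5 was at 1127, 1088, 878 and 939 CPM and 945, 917, 771 and 871 CPM, overlapping, with a log2 difference of -0.20 (SE 0.11, adjusted p = 0.183). Ern1 had a log2 difference of -0.21 (SE 0.16, adjusted p = 0.373) and Xbp1 of 0.25 (SE 0.14, adjusted p = 0.205). That these genes passed in one genotype and not in the other is no evidence of a difference, since the test of the difference itself called no gene. Of 10 macrophage markers 3 fell and 0 rose in WT. Their sum there was 10357 to 10600 CPM on ST-HFD and 7967 to 9981 CPM on LT-HFD. Of 15 dissociation genes 2 rose and 0 fell in WT, where 12.1% of all genes rose and 13.2% fell. The part of either list in the WT estimates was not tested. Within each library the ratio of Hspa5 to Xbp1 CPM describes the opposite movement. It was 6.90 to 10.2 for WT and 7.77 to 10.99 for IRF5-KO on ST-HFD, 5.16 to 8.03 for WT and 4.81 to 6.32 for IRF5-KO at the longer duration. Markers of plasma cells and B cells, which use much Xbp1, summed to 283 to 421 CPM at 4 weeks and 312 to 508 CPM at 12 weeks. Of 7 tested, Igkc and Igj rose in both genotypes and no other was called. In the libraries labelled IRF5-KO 4 of the 7 estimates were below 0, with a list median of -0.00789, against 1 of 7 and a median of 0.54 in WT. The part of such cells in the Xbp1 estimate was not tested.

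Atf5 was the member called in WT. This factor of the ATF4 arm, known for the mitochondrial stress response, was at 14.4, 15.8, 14.4 and 8.29 CPM in WT ST-HFD and 17.6, 22.4, 16.1 and 43.8 CPM in WT LT-HFD. The groups did not overlap, as for 12.3% of genes that were higher, and WT LT-HFD replicate 4 stood far above every other library with 161 counts. The log2 difference was 0.92 (SE 0.32, adjusted p = 0.0409), which makes 1 of 9 members called in WT, against 25.3% of 11560 genes. That 1 was higher, as were 12.1% of genes, and 0 members were lower, against 13.2%. Without WT LT-HFD replicate 4 the difference was 0.50 (adjusted p = 0.245), and the call was also lost without WT LT-HFD replicate 2, IRF5-KO LT-HFD replicate 3 or any single WT ST-HFD library (adjusted p = 0.0506 to 0.117), and in a fit of the 8 WT libraries alone (0.0588). In the libraries labelled IRF5-KO, Atf5 was at 15.6, 14.7, 9.70 and 9.60 CPM on ST-HFD and 24.6, 11.9, 23.9 and 27.5 CPM on LT-HFD. Replicate 2 on LT-HFD lay inside the ST-HFD range, and the difference was 0.82 (SE 0.32, adjusted p = 0.0612). It was called without that library (adjusted p = 0.0211) and without WT LT-HFD replicate 4 (adjusted p = 0.0226), and also without the filter or in the 8 libraries of that genotype alone (both 0.0377). WT LT-HFD replicate 4 also had the highest sum of fibroblast and preadipocyte markers, 18083 CPM, against 5712 to 6311 CPM in the other WT LT-HFD libraries. The exons of Atf5 overlap those of Il4i1 and of a Nup62 entry on the opposite strand, and the strand setting of the counting is not given in the sources used here. Il4i1 held 12 to 48 counts at 4 weeks and 14 to 39 counts at 12 weeks, with a log2 difference of 0.62 (SE 0.48) in WT and -0.31 (SE 0.48) in the libraries labelled IRF5-KO, neither called in edgeR's test (adjusted p = 0.386 and 0.659).

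Atf4, Ddit3, Trib3 and Asns showed no called change with duration in either genotype. The log2 difference of Atf4 was 0.02 (95% interval -0.27 to 0.32) in WT and -0.18 (95% interval -0.48 to 0.12) in the libraries labelled IRF5-KO. Ddit3 was at 20.9, 29.5, 17.5 and 19.2 CPM in WT ST-HFD, 22.8, 27.95, 19.2 and 17.4 CPM in WT LT-HFD, 26.5, 26.0, 28.9 and 14.3 CPM in IRF5-KO ST-HFD and 21.6, 14.9, 18.3 and 22.2 CPM in IRF5-KO LT-HFD. Within each library Ddit3 held 7.42% to 12.9% of the CPM of Atf4. The groups overlapped in each comparison, with log2 differences of -7.32e-04 (95% interval -0.47 to 0.47) in WT and -0.32 (95% interval -0.79 to 0.15) in the libraries labelled IRF5-KO. Its exons overlap those of Mars on the opposite strand, whose log2 differences were -0.11 (SE 0.13) and -0.08 (SE 0.13). Trib3 had 17, 7, 9 and 9 counts in WT ST-HFD, 12, 1, 7 and 13 in WT LT-HFD, 13, 6, 2 and 11 in IRF5-KO ST-HFD and 4, 4, 12 and 6 in IRF5-KO LT-HFD. Its 95% interval ran from -1.25 to 1.26 in the libraries labelled IRF5-KO, so a change of 2 times either way was not excluded. Asns had 25, 9, 6 and 13 counts in WT ST-HFD and 17, 10, 7 and 11 in IRF5-KO ST-HFD, and its duration estimates were -0.38 (95% interval -1.57 to 0.80) in WT and 0.81 (95% interval -0.30 to 1.92) in the libraries labelled IRF5-KO.

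Averaged over both genotypes, a contrast added after the data were seen, duration moved 5 of 9 members, against 43.6% of 11560 genes. Atf5 rose by 0.87 (SE 0.23, adjusted p = 0.00481) and Xbp1 by 0.31 (SE 0.10, adjusted p = 0.0131) on the log2 scale, 2 of 9 members against 22% of genes. Atf6 fell, at -0.36 (SE 0.07, adjusted p = 5.26e-04), as did Ern1, at -0.47 (SE 0.12, adjusted p = 0.00285), and Hspa5, at -0.28 (SE 0.08, adjusted p = 0.00618), 3 of 9 against 21.6% of genes. Each of these 5 calls remained in every fit without 1 library. Atf4, at -0.08 (SE 0.10, adjusted p = 0.555), and Ddit3, at -0.16 (SE 0.16, adjusted p = 0.441), were not called. Whether the libraries of both durations were prepared together is not given in the sources used here, so diet duration, age and any such batch cannot be told apart.

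The pathway lists moved in both directions in this averaged contrast, in which 22% of all genes rose and 21.6% fell, with a median over all genes of 0.04 on the log2 scale. Among ATF6 targets and ER chaperones, 8 of 15 fell and 4 rose, with a list median of -0.16. Those that fell, like Hspa5, were led by the chaperone Hsp90b1 (GRP94) at -0.88 (SE 0.08, adjusted p = 1.51e-07) and Hyou1, an exchange factor for BiP, at -0.56 (SE 0.09, adjusted p = 7.37e-05). Those that rose were led by P4hb, a disulfide isomerase, at 0.39 and Calu, a calcium-binding ER protein, at 0.39. Among XBP1 targets, 8 of 19 rose and 4 fell, with a median of 0.09. The leaders were Serp1 at 0.48 (SE 0.06, adjusted p = 4.60e-06) and Ssr3 at 0.53 (SE 0.07, adjusted p = 1.22e-05), both parts of the translocation machinery of the ER membrane, while the co-chaperone Dnajc3 fell, at -0.45, as did the disulfide isomerase Pdia6, at -0.37. In ER-associated degradation, Os9, a lectin for misfolded glycoproteins, fell, at -0.74 (SE 0.06, adjusted p = 7.93e-08), while Derl1, at 0.38, was among 3 of 14 that rose. Of 12 regulators of ATF6 and IRE1, Tmbim6 and Creb3 rose and Map3k5 and Nfe2l1 fell.

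On the eIF2 side, 5 of 17 genes rose and 5 fell, close to the shares among all genes. The kinases Eif2ak2 (PKR), at -1.04 (SE 0.11, adjusted p = 6.96e-07), and Eif2ak1 (HRI), at -0.40 (SE 0.08, adjusted p = 5.18e-04), were lower on LT-HFD. So were PERK (Eif2ak3), at -0.41, and Ppp1r15a, at -0.86, a pair named after their values were seen. The phosphatase subunits Ppp1ca, at 0.44, and Ppp1cb, at 0.38, were higher. Of 21 tested partners and targets of ATF4, 4 rose and 1 fell. The lipoprotein receptor Vldlr rose by 3.20 (SE 0.37, adjusted p = 1.83e-06) and the glutamine carrier Slc1a5 by 1.07 (SE 0.16, adjusted p = 2.74e-05), while Cebpb fell, at -0.47. Of the 14 genes in the list of aminoacyl-tRNA synthetases, which includes the tRNA exporter Xpot, 4 fell and 1 rose. Eprs at -0.93 (SE 0.11, adjusted p = 2.91e-06) and Vars at -0.60 were lower and Sars at 0.21 was higher. In the mitochondrial unfolded protein response, 3 of 14 rose, led by the proteases Yme1l1 at 0.42 (SE 0.07, adjusted p = 1.50e-04) and Htra2 at 0.56, and 2 fell, the proteases Spg7 at -0.28 and Lonp1 at -0.24. Within each genotype alone, 17 of 126 list genes rose and 17 fell in WT, and 23 rose and 16 fell in the libraries labelled IRF5-KO. Among all genes 12.1% rose and 13.2% fell in WT, and 15.6% and 17.2% in the libraries labelled IRF5-KO. In the averaged contrast all 8 fibroblast and preadipocyte markers rose and 6 of 10 macrophage markers fell, and their part in the changes of these lists was not tested.

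**Figure D3:**
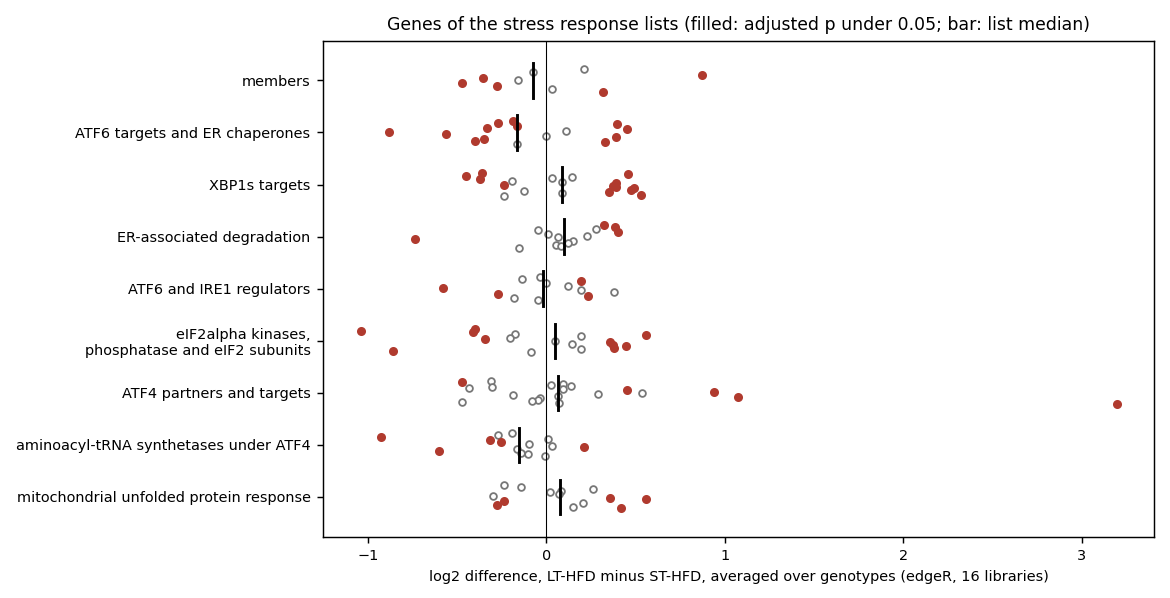
Log2 difference with diet duration (LT-HFD minus ST-HFD, averaged over genotypes, 16 libraries) of each tested gene in the member list and 8 pathway lists; filled points have an adjusted p under 0.05 in edgeR and black bars are list medians. Medians lie between -0.16 and 0.10, with filled points on both sides of 0 in each list, and Vldlr stands alone at 3.20.

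Members were then compared across the 16 libraries, each centred on its group mean so that group differences did not enter. Atf4 rose and fell with Ddit3, the target it is known to drive, with Pearson's r = 0.789 (exact permutation p = 0.00226, Benjamini-Hochberg p = 0.0158 over 7 relations) and Spearman's rho = 0.741 (exact permutation p = 0.00351, adjusted 0.0245). Leaving out the 2 libraries farthest in Atf4, r was 0.703 (exact permutation p = 0.0192). Atf4 and Trib3 ran opposite, with r = -0.626 (exact permutation p = 0.00962, adjusted 0.0291) and rho = -0.629 (p = 0.0141, adjusted 0.0365), but r was -0.483 (exact permutation p = 0.0618) without those 2 libraries. Trib3 had only 1 to 17 counts a library, so its levels are imprecise. Hspa5 followed Ern1, with r = 0.583 (exact permutation p = 0.0125, adjusted 0.0291) and rho = 0.462 (p = 0.0439, adjusted 0.0768), and with 0.796 (exact permutation p = 0.00424) without the 2 libraries farthest in Hspa5. Hspa5 and Atf6 had r = 0.557 (exact permutation p = 0.0264, adjusted 0.0463) and rho = 0.591 (p = 0.0157, adjusted 0.0365), and 0.357 (exact permutation p = 0.243) without them, so this relation rests on those 2. Atf4 with Atf5 (r = 0.00964, rho = 0.129), Atf4 with Asns (r = -0.160, rho = -0.153) and Hspa5 with Xbp1 (r = 0.0181, rho = -0.0824) had exact permutation p of 0.459 or more for r and 0.566 or more for rho. With the replicate number as a block none of the 7 relations had an adjusted p under 0.05, at r = 0.703 for Atf4 with Ddit3 and -0.806 for Atf4 with Trib3 (both 0.0729), 0.358 for Hspa5 with Ern1 and 0.262 for Hspa5 with Atf6 (both 0.649). All 4 relations with an adjusted p under 0.05 were also lost without IRF5-KO ST-HFD replicate 4, and likewise without WT ST-HFD replicate 2. With each of 16 libraries left out in turn, Atf4 with Ddit3 was lost in 2 fits, Atf4 with Trib3 in 5, Hspa5 with Ern1 in 7 and Hspa5 with Atf6 in 11.

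The same libraries differed in the level of genes that respond to tissue dissociation. On ST-HFD that sum was lowest in replicate 3 among WT libraries, at 5882 CPM, and in replicate 4 among libraries labelled IRF5-KO, at 7350 CPM, and Atf4 was lowest in the same replicates of each group, at 193 and 174 CPM. In relations chosen after the data were seen, 9 members were set against the sums of 3 marker lists. The dissociation sum went with Atf4 (r = 0.816, exact permutation p = 0.00305, adjusted 0.0274 over 27 relations; rho = 0.876, p = 0.00113, adjusted 0.0305), with Ddit3 (r = 0.801, exact permutation p = 0.000744, adjusted 0.0114; rho = 0.741, p = 0.00254, adjusted 0.0326) and with Hspa5 (r = 0.821, exact permutation p = 0.000847, adjusted 0.0114; rho = 0.756, p = 0.00362, adjusted 0.0326). Without the 2 libraries farthest in that sum, r was 0.675, 0.685 and 0.623 (exact permutation p = 0.0352, 0.0173 and 0.0252). None of the 27 relations passed the adjustment without IRF5-KO ST-HFD replicate 4. None passed with the replicate number as a block either, where r was 0.897, 0.770 and 0.771 over 8 pairs (adjusted exact permutation p = 0.359, 0.359 and 0.375). Atf5 and the fibroblast and preadipocyte sum had r = 0.804 (exact permutation p = 0.0154, adjusted 0.104; rho = 0.676, p = 0.0215, adjusted 0.111), and 0.342 (exact permutation p = 0.443) without the 2 farthest libraries. The relations of Atf4 with Ddit3 and of Hspa5 with Ern1 are thus given for libraries that also differed in this sum, whose part in them was not tested.

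**Figure D4:**
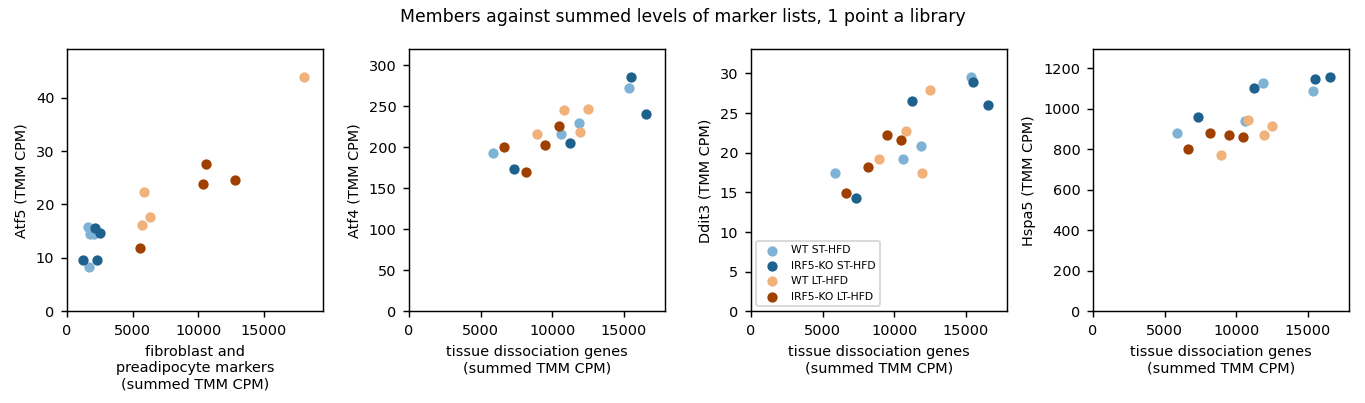
Level of 4 members (y axis, TMM CPM) against the summed level of a marker list (x axis, TMM CPM), with 1 point for each of 16 libraries, coloured by group. Atf5 is highest in the library with the largest fibroblast and preadipocyte sum, 18083 CPM, and Atf4, Ddit3 and Hspa5 tend to be higher in libraries with more of the dissociation genes.

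Chac1, a target of the ATF4 arm whose promoter stretch is shown with those of Hspa5 and Asns, was too low for the test across genes. It had 0, 0, 1 and 0 counts in WT ST-HFD, 0, 0, 0 and 0 in WT LT-HFD, 1, 1, 4 and 2 in IRF5-KO ST-HFD and 2, 1, 2 and 0 in IRF5-KO LT-HFD. That is 13 counts over 8 libraries labelled IRF5-KO, 7 of which held at least 1, and 1 count over 8 WT libraries. The ratio of the count rates was 13.4, with an exact 95% interval from 2.02 to 570.5 that covers counting error only. An exact permutation test of the CPM within durations, two-sided over 4900 rearrangements, gave p = 0.00408, and 0.000816 to 0.0102 with 1 library left out. Within ST-HFD alone the exact permutation p was 0.0571, and within LT-HFD alone it was 0.143, with 70 rearrangements each. The test was chosen after these counts were seen, and its p is not adjusted for the other members. A count of 0 in a WT LT-HFD library allows up to 0.814 to 1.05 CPM, above the highest level of IRF5-KO LT-HFD, 0.562 CPM. Asns and Trib3, the other low members of this arm, had no called difference between genotypes.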

How the data were processed

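F4/80+ ATM RNA was converted into stranded, ribodepleted total RNA libraries and sequenced in pairs. The authors aligned reads to mm10 with STAR 2.7.3a after fastp 0.19.11 (the submitters' processing notes, which also list mm9), and deposited raw counts per gene without normalization. The annotation release and strand setting of the counting are not given in the sources used here. The counts were tested with edgeR 4.0.16 under R 4.3.3: filterByExpr, TMM, the quasi-likelihood test, Benjamini-Hochberg adjustment over all genes tested, and calls at an adjusted p under 0.05. Genotypes were compared within each duration (8 libraries); duration effects and the interaction were fitted over 16 libraries. SE is the log2 difference divided by the square root of F, and intervals are 95%. CPM used TMM factors, log2 CPM a prior count of 2, and lengths and positions came from GENCODE vM21 (32620 of 37310 identifiers matched). Correlations were tested over all within-group pairings in Python with scipy 1.17.1. Methods were tested on simulated data.

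Total counts of 3279332 to 4958131 per library set the precision: 3 counts, the limit that a count of 0 allows, are 0.565 to 1.05 CPM. Intervals from counts cover counting error only. The labels do not say more of the replicates than their numbers, so p-values measure the spread between these libraries. No pair of libraries was a duplicate (lowest chi-square per degree of freedom 4.00). Deviations from the group mean, taken over genes whose mean count reached 20, correlated at 0.179 to 0.483 between same-numbered libraries on ST-HFD. All were over 0.1, the minimum set for a pairing. Some differently numbered ST-HFD libraries correlated by as much, up to 0.467, so a pairing by number is possible but not settled. Tests are given without the block unless stated, so they leave such a pairing out, and the fit with it is an alternative. Alternatives were DESeq2 1.42.0 (Wald test), RLE factors, no filter, a replicate block, leaving out the 3 most abundant features, other libraries in the fit, and each library left out in turn. The members, lists and tests were chosen with earlier results of these data known. Named were all 10 members, for each pathway list, the called genes of smallest p (at most 2 that rose and 2 that fell), or its gene with the smallest p where none was called, and the most abundant markers. Not every gene within this rule is reported here. Lyz2, Igkc, Igj, Il4i1 and Mars were named after their values were seen. No comparison with lean mice, no exon-level reads and no other cell types of the study were analysed here.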

Additional observations from a re-analysis of the deposited data

Results flagged for a closer look

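Of 37 groups of 4 libraries with more than 3 counts of a member in at least 1 library, 2 held a library far from the other 3 by Dixon's ratio (the gap to the nearest library over the whole range), which passes its 95% critical value by chance in about 1 group of 20. Ern1 in WT ST-HFD replicate 4 was at 53.5 CPM, against 70.1 to 71.4 CPM in the other WT ST-HFD libraries (ratio 0.931). Asns in WT LT-HFD replicate 2 was at 0 CPM, with 0 counts, against 2.50 to 2.99 CPM in the other WT LT-HFD libraries (ratio 0.837). That library also had the highest share of counts in the 3 most abundant features, 34.5%.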

How the results depend on the processing

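Over all alternatives and libraries left out in turn, 931 of 1010 log2 differences of members kept their direction and their side of the threshold, 14 were no longer called, 4 became called and 61 changed sign. Among these sign changes the largest absolute value was 0.453, and the smallest adjusted p in edgeR or DESeq2 was 0.646. Correlations are not among these values. The cause was not tested. No member was called between genotypes, or in the interaction, under any alternative.

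Genes called on ST-HFD numbered 2 with DESeq2, without the filter, with the replicate block and with all 16 libraries, against 1, and the block left the members at 0. On LT-HFD they numbered 6 with DESeq2 and 6 without the filter, against 2, 0 with the block, and 0 to 2 without 1 library. In WT over duration, the members called were 0 with the block and 0 in the 8 WT libraries alone, against 1, and 0 to 1 without 1 library. The pathway genes called there were 19 without the filter, against 34, and 22 to 34 without 1 library. Among correlations, 0 passed with the replicate block, against 4, and 0 to 4 without 1 library. The relations with marker sums, chosen after seeing the data, numbered 0 with the replicate block, against 3, and 0 to 4 without 1 library. The block is no pairing across durations or on LT-HFD, where same-numbered libraries correlated at -0.385 to 0.363. It changed no other count of calls by over 1.5 times.

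Some values changed sign under a setting. With the block, Trib3 was at 0.0692 in the interaction, -0.0377 in WT and -0.00596 in the averaged contrast. In the libraries labelled IRF5-KO it was at -0.00366 with DESeq2, -0.00223 with RLE factors and -0.0109 without the filter. Ddit3 in WT was at 0.00320 with DESeq2, 0.00503 with RLE, 0.00959 with the block, 0.00529 without the 3 most abundant features and 0.0173 in 8 libraries. Atf4 with Atf5 had r = -0.0523 on CPM and -0.396 with the block.

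Ranges that crossed 0 when 1 library was left out were as follows. Between genotypes on ST-HFD, they were -0.14 to 0.0864 for Atf4, -0.26 to 0.0197 for Atf5, -0.53 to 0.0419 for Trib3, -0.29 to 0.34 for Asns, -0.12 to 0.0122 for Xbp1 and -0.00505 to 0.13 for Ern1. On LT-HFD they were -0.35 to 0.22 for Atf5, -0.00774 to 0.18 for Xbp1 and -0.0825 to 0.0120 for Hspa5. In the interaction they were -0.27 to 0.32 for Atf5 and -0.51 to 0.22 for Trib3. With duration in WT they were -0.0495 to 0.12 for Atf4, -0.14 to 0.17 for Ddit3, -0.22 to 0.38 for Trib3 and -0.60 to 0.0603 for Asns. Trib3 ran from -0.45 to 0.24 in the libraries labelled IRF5-KO and from -0.20 to 0.19 in the averaged contrast. The r of Atf4 with Atf5 ran from -0.138 to 0.155 and that of Hspa5 with Xbp1 from -0.190 to 0.162.

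Depth limits Chac1, Trib3 and Asns, whose counts did not pass 28 in any library.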

Other observations

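In the libraries labelled IRF5-KO, the IRE1 gene (Ern1) fell and its substrate (Xbp1) rose with duration, each without overlap. Of all genes, 15.2% were lower and 14.3% higher in this way. Neither Ern1 nor Xbp1 was called in WT. The ratio of Ern1 to Xbp1 CPM follows from these movements, so its lack of overlap in IRF5-KO is no separate result. It ran from 0.513 to 0.752 there at 4 weeks and from 0.223 to 0.374 at 12 weeks. In WT it was 0.475 to 0.638 and 0.319 to 0.560, with overlap. Atf5 held 3.40% to 7.59% of the CPM of Atf4 on ST-HFD in both genotypes, and 5.94% to 20.05% on LT-HFD.

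T and NK cell markers summed to 3.01 to 34.2 CPM over the 16 libraries, markers of neutrophils, eosinophils and mast cells to 1.01 to 12.9 CPM, and endothelial and mesothelial markers to 10.8 to 73.8 CPM. Dendritic cell markers summed to 39.6 to 188 CPM. Adipocyte markers summed to 86.1 to 219 CPM at 4 weeks and 163 to 364 CPM at 12 weeks. The part of these cells in the levels of the members was not tested.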
